A study of Mus musculus with 18 samples.

Results

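The transcripts described here are those of Id1, Id2, Id3, Smad6, Smad7 and Bmp4, genes known to be switched on by BMP-SMAD signalling in many cells. They were chosen by name, and all 6 are among the 10965 genes of the deposited table of TPM (reads scaled by the length of the gene and the total of the library). The study asked how loss of Zeb2 alters the path of mouse embryonic stem cells (ESCs) from the ground state into neural differentiation (ND). RNA-seq compared control cells (Ctrl, genotype Zeb2 fl/fl) with cells of genotype Zeb2 -/- (Zeb2 KO), both of strain CD1, and each genotype gave 3 libraries on each of 3 days (18 in total). On d0 the cells were in N2B27 medium with LIF and the inhibitors PD0325901 and CHIR99021 (2i + LIF), on d4 they were embryoid bodies (EBs) in medium with 15% serum, and on d6 they had been in N2B27 with 500 nM retinoic acid since d4. The paper made Zeb2 KO lines by Cre from floxed CD1 control lines, and others in a second derivation on a mixed background. The strain and the control genotype in the labels match the first derivation. How many of these lines the 9 KO libraries stand for is not given in the sources used here, so a KO library may share its clone with others. The replicates are described as independent experiments.

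BMP ligands bind pairs of type I and type II receptors, which phosphorylate Smad1, Smad5 and Smad9. These join Smad4 and enter the nucleus, where the Id genes are among the first to respond. Id proteins lack a DNA-binding region and hold E proteins away from DNA, and in mouse ESCs the BMP-to-Id route is known for restraining neural commitment. Smad6 and Smad7 encode inhibitory SMADs that act on the receptors and on Smad4, so their induction closes a feedback loop. Zeb2 was found as a protein that binds activated SMADs, and it recognises DNA through a pair of sites, CACCT and CACCTG.

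The 6 genes lie apart in the genome (build GRCm38, GENCODE M21). Id1 is at chr2:152736251-152737410, Id2 at chr12:25093799-25097140, Id3 at chr4:136143497-136145755, Smad6 at chr9:63953076-64022059 and Bmp4 at chr14:46383520-46390669. The 250 bases before the RefSeq start of 4 of them (Id2, Id3, Smad6 and Bmp4) were searched on both strands for the Zeb2 motifs CACCT and CACCTG and for 2 SMAD motifs, CAGAC and the GC-rich GGCGCC. The sequences are those of RefSeq, build GRCm38.p6. Id1 and Smad7 were not searched. The study searched a longer window on both sides of the start, so sites outside these 250 bases are not covered here.

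Bmp4 was the only one of the 4 with a Zeb2 motif in these 250 bases, and it held the pair: a CACCTG from 177 to 172 bases before the start, which contains a CACCT, and a second CACCT from 129 to 125 bases before it. Between the 2 CACCT lie 42 bases. Its 250 bases (chr14:46390670-46390919, minus strand) are shown because they carry this pair. Capitals mark the sites, which read CAGGTG and AGGTG here since both are on the opposite strand to the gene.
Bmp4 upstream: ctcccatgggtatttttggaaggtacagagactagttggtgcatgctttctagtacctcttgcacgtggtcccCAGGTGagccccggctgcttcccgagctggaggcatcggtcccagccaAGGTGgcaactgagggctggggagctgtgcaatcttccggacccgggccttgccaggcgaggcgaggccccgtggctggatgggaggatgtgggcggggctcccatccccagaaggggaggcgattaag
Of 32851 mouse promoters of the same length, 46.0% held a CACCT, 17.2% a CACCTG and 3.53% a pair of both that did not overlap and had at most 45 bases between them.

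Id3 had 2 CAGAC motifs and Id2 had 1 GGCGCC, and Smad6 had none of the 4 motifs in this window. CAGAC was present in 42.2% of all promoters and GGCGCC in 9.59%. The SMAD motifs of Id3 and Id2 are shown with 10 bases on each side, in the direction of the gene and with the motif in capitals (the second of Id3 is on the opposite strand, where CAGAC reads GTCTG).
Id3 first CAGAC (chr4:136143645-136143669, plus strand): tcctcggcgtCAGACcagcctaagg
Id3 second CAGAC (chr4:136143744-136143768, plus strand): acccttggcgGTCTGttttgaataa
Id2 GGCGCC (chr12:25096308-25096333, minus strand): aggccccctgGGCGCCcagcgcacac
In GENCODE M21 both Id3 windows also lie in an exon of a longer Id3 transcript. These matches describe letters in the sequence, and binding was not measured.

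The targeted gene was checked first. Zeb2 in Ctrl was 0.129 ± 0.00754 TPM on d0, 1.36 ± 0.121 on d4 and 7.66 ± 0.138 on d6 (mean ± SD, n = 3). In KO it was 0.0216 ± 0.00526, 0.164 ± 0.0388 and 0.681 ± 0.0763 TPM, and every KO library was below every Ctrl library of its day. On d0 the KO libraries held 1 to 3 reads of Zeb2, and the KO minus Ctrl difference of log2(TPM + 1) was -0.14 (limma, adjusted p = 0.360). Zeb2 also rose in KO from d0 to d6 (log2 change 0.72, limma, adjusted p = 3.39e-05), to 71 to 84 reads. The depth was 9622622 to 15617675 reads per library on the genes of the table. The 8 pluripotency genes were Pou5f1, Nanog, Sox2, Utf1, Tdgf1, Esrrb, Zfp42 and Klf4. Their summed TPM was 5192 to 5435 in Ctrl and 5010 to 5377 in KO on d0. On d6 it was 988 to 1140 in Ctrl and 3417 to 3676 in KO. The paper reports that Esrrb, Zfp42 and Klf4 went down in both genotypes. Each sum here is carried by its most abundant genes and does not speak for single genes. The 8 neural genes were Pax6, Sox1, Neurog1, Zfp521, Tubb3, Irx3, Nes and Pax3. Their summed TPM on d0 was 192 to 236.7 in Ctrl and 107.1 to 121.5 in KO. On d4 it was 324.7 to 383.1 in Ctrl and 218.1 to 235.4 in KO, and on d6 512 to 582.2 and 98.4 to 118. For 4 of 8 mesoderm markers, those in the table, it was 191 to 234 in Ctrl and 4.42 to 5.61 in KO on d4. For 7 of 8 endoderm markers it was 165 to 287 in Ctrl and 34.0 to 54.6 in KO on d6, and for 6 of 8 trophectoderm markers the ranges on d6 overlapped (1201 to 1846 in Ctrl and 1091 to 2132 in KO). The table holds no value of 0. The part of these cell states in the differences below was not tested, and in bulk RNA fewer cells that make a transcript and less of it per cell cannot be told apart.

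**Figure D1:**
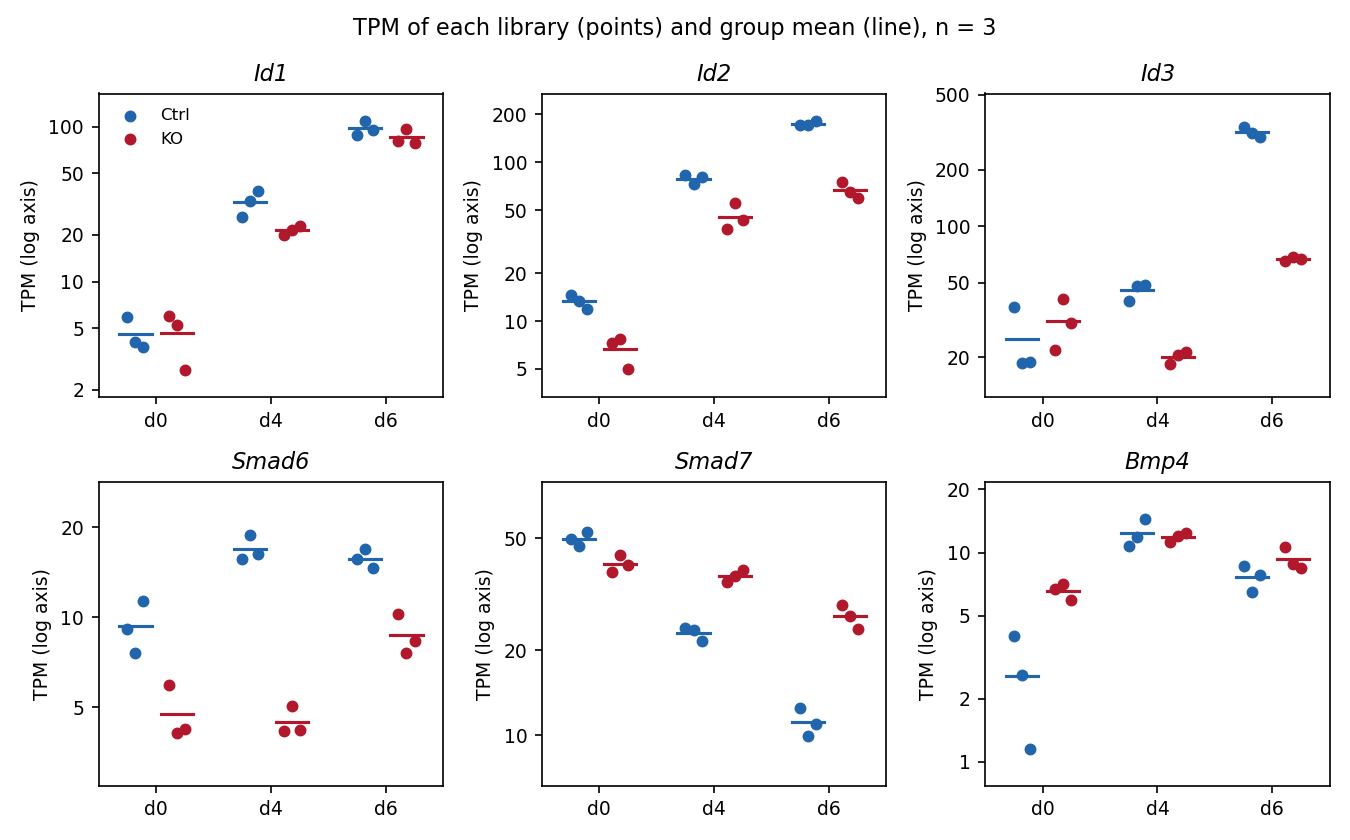
TPM of the 6 genes (log axis, with its own range in each panel) on d0, d4 and d6 in Ctrl (blue) and Zeb2 KO (red); points are libraries and lines are group means (n = 3). Id3 parts widely on d6, at 298 to 339 TPM in Ctrl and 64.7 to 68.3 in KO, Smad7 falls more in Ctrl than in KO, and Id1 overlaps between genotypes on d0 and d6.

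Genotypes were compared on log2(TPM + 1) over all genes, and a gene was called at an adjusted p below 0.01 (limma, with Benjamini-Hochberg adjustment over all genes). Differences are KO minus Ctrl on this log2 scale ± SE, and adding 1 makes the differences of low genes smaller.

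Bmp4, the ligand of the group, was higher in KO than in Ctrl in the ground state, and no difference was called on d4 or d6. On d0 it was at 3.99, 2.60 and 1.16 TPM in Ctrl replicates 1, 2 and 3, and at 6.68, 7.07 and 5.96 TPM in KO. All 3 KO libraries were above all Ctrl libraries, which rested on few reads (13 to 63 in Ctrl and 64 to 113 in KO). The KO mean was 255% of the Ctrl mean, a log2 difference of 1.16 ± 0.22 (adjusted p = 0.000541). In a fit to the d0 libraries alone the adjusted p was 0.0162.

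On d4 Bmp4 was at 10.8, 11.8 and 14.5 TPM in Ctrl and 11.3, 11.96 and 12.4 TPM in KO. The KO range lay inside the Ctrl range, and the log2 difference of -0.04 had a 95% interval of -0.51 to 0.42 (adjusted p = 0.875). On d6 it was at 8.61, 6.46 and 7.80 TPM in Ctrl and 10.6, 8.81 and 8.44 TPM in KO, which overlapped, with a log2 difference of 0.26 and an interval of -0.21 to 0.72. From d0 to d4 Bmp4 rose 4.79-fold in Ctrl (log2 change 1.97 ± 0.22, adjusted p = 5.11e-07) and 1.81-fold in KO (0.77 ± 0.22, adjusted p = 0.00546). The KO rise was not called when any one of the 6 KO libraries of d0 and d4 was left out (0.71 to 0.81, adjusted p of 0.0105 to 0.0222), nor after median-ratio rescaling (0.62, adjusted p = 0.0233) or quantile normalization (0.39, adjusted p = 0.154). In order of level, Ctrl d0 was lowest and apart from all other groups, KO d0, Ctrl d6 and KO d6 followed with each range overlapping the next, and the 2 groups of d4 were highest and overlapped each other.

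Smad6, the inhibitory SMAD that acts mainly on BMP signalling, was lower in KO on all 3 days, most on d4. On d0 it was at 9.14, 7.61 and 11.3 TPM in Ctrl and 5.94, 4.09 and 4.23 TPM in KO. On d4 it was at 15.6, 18.9 and 16.3 TPM in Ctrl and 4.14, 5.02 and 4.21 TPM in KO. On d6 the values were 15.6, 16.9 and 14.6 TPM in Ctrl and 10.2, 7.59 and 8.35 TPM in KO. The genotypes did not overlap on any day. KO held 50.8% of the Ctrl mean on d0 (log2 difference -0.85 ± 0.15, adjusted p = 0.000408), 26.3% on d4 (-1.72 ± 0.15, adjusted p = 1.89e-07) and 55.5% on d6 (-0.79 ± 0.15, adjusted p = 0.000324). The d0 call was not made in a fit to the d0 libraries alone (adjusted p = 0.0106).

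Smad6 rose in Ctrl before d4 and in KO after it. Ctrl rose 1.81-fold by d4 (log2 change 0.80 ± 0.15, adjusted p = 0.000182) and then showed a log2 change of -0.10 ± 0.15 to d6 (adjusted p = 0.605). KO showed -0.07 ± 0.15 to d4 (adjusted p = 0.730) and rose 1.96-fold from d4 to d6 (0.83 ± 0.15, adjusted p = 0.000293). Quantile normalization changed the first step in both, to 0.24 in Ctrl (adjusted p = 0.163) and to -0.54 in KO (adjusted p = 0.00505). KO d4 was the lowest group and overlapped KO d0, KO d6 overlapped Ctrl d0, and Ctrl d6 and Ctrl d4 were highest and overlapped each other.

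Smad7 (chr18:75367529-75395935), which blocks both BMP and TGF-beta receptors, went the other way and was the one gene of the 6 called higher in KO during ND. On d0 it was at 49.8, 46.7 and 52.7 TPM in Ctrl and 38.0, 43.5 and 40.0 TPM in KO. These did not overlap, with KO at 81.4% of Ctrl, but at -0.29 ± 0.09 this missed the threshold (adjusted p = 0.0197). On d4 it was at 23.9, 23.6 and 21.6 TPM in Ctrl and 34.9, 36.6 and 38.7 TPM in KO. On d6 it was at 12.5, 9.92 and 10.9 TPM in Ctrl and 29.0, 26.5 and 23.8 TPM in KO. KO was at 159% of the Ctrl mean on d4 (log2 difference 0.65 ± 0.09, adjusted p = 2.21e-05) and at 238% on d6 (1.18 ± 0.09, adjusted p = 1.67e-08), with every KO library above every Ctrl library.

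Smad7 fell from d0 to d6 in both genotypes, and less in KO (difference of the 2 changes 1.47 ± 0.13, adjusted p = 1.40e-07). In Ctrl d6 was at 0.224 of the d0 mean (log2 change -2.07 ± 0.09, adjusted p = 5.40e-12), and in KO at 0.653 (-0.60 ± 0.09, adjusted p = 1.86e-05). Ctrl fell at each step, by 1.08 to d4 and by 0.99 from d4 to d6 on the log2 scale. The first step in KO was -0.14 ± 0.09 (adjusted p = 0.208), which became -0.30 (adjusted p = 0.00708) after median-ratio rescaling of the libraries. From d4 to d6 KO fell by 0.46 on the log2 scale (adjusted p = 0.000516). The order of levels was Ctrl d6 lowest, then Ctrl d4 and KO d6, where 1 KO library lay among the Ctrl values, then KO d4 and KO d0, which overlapped, and Ctrl d0 highest.

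Smad7 and Smad6 thus parted in ratio within single libraries. TPM is per transcript length, so levels of different genes can be set side by side. The Smad7 to Smad6 ratio of TPM was 1.25 to 1.53 in Ctrl and 7.29 to 9.19 in KO on d4, and 0.586 to 0.801 in Ctrl and 2.83 to 3.49 in KO on d6. The ranges were apart on both days and also on d0 (4.65 to 6.14 and 6.40 to 10.6). A two-sided exact permutation test gave p = 0.1 for each, the smallest that 3 against 3 libraries can give.

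Id1 rose strongly in both genotypes. On d0 it was at 5.93, 4.07 and 3.78 TPM in Ctrl and 5.97, 5.23 and 2.69 TPM in KO, which overlapped. On d4 it was at 26.3, 33.1 and 38.3 TPM in Ctrl and 19.96, 21.5 and 22.9 TPM in KO. On d6 it was at 87.9, 109 and 95.4 TPM in Ctrl and 81.4, 97.1 and 78.6 TPM in KO. The genotypes were apart on d4 alone, where KO was at 65.8% of Ctrl, but the log2 difference of -0.57 ± 0.20 was not called (adjusted p = 0.0255). It was called in a fit to d4 alone (adjusted p = 0.00873) and without KO d0 replicate 3 (adjusted p = 0.00500), and it was -0.33 after quantile normalization (adjusted p = 0.150). On d6 the difference was -0.19, with a 95% interval of -0.62 to 0.25 (adjusted p = 0.450).

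From d0 to d6 Id1 increased 21.2-fold in Ctrl (log2 change 4.15 ± 0.20, adjusted p = 1.76e-11) and 18.5-fold in KO (3.99 ± 0.20, adjusted p = 3.41e-11). The difference between these changes was -0.16, with a 95% interval of -0.77 to 0.45 (adjusted p = 0.658). Its levels went up with the day in both genotypes, and at d0 and d6 the neighbours in the order were the 2 genotypes of one day, which overlapped.

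Id2 rose from day to day in both genotypes and was lower in KO on every day. It was at 14.7, 13.4 and 11.97 TPM in Ctrl and 7.27, 7.68 and 4.99 TPM in KO on d0, where KO libraries rested on 17 to 40 reads. On d4 it was at 83.0, 72.7 and 80.6 TPM in Ctrl and 38.0, 55.0 and 43.5 TPM in KO. On d6 it was at 171, 173 and 180 TPM in Ctrl and 75.4, 64.5 and 59.2 TPM in KO. No KO library reached a Ctrl library of its day. KO was at 49.8% of Ctrl on d0 (log2 difference -0.92 ± 0.14, adjusted p = 9.83e-05), 57.8% on d4 (-0.79 ± 0.14, adjusted p = 0.000212) and 38.0% on d6 (-1.39 ± 0.14, adjusted p = 4.23e-07).

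The rise of Id2 from d0 to d6 was 13.1-fold in Ctrl (log2 change 3.62 ± 0.14, adjusted p = 1.34e-12) and 9.99-fold in KO (3.15 ± 0.14, adjusted p = 8.17e-12). Between d4 and d6 it rose 2.22-fold in Ctrl (1.14 ± 0.14, adjusted p = 5.07e-06) and 1.46-fold in KO (0.54 ± 0.14, adjusted p = 0.00434). The KO step was not called without KO d4 replicate 1 (0.42, adjusted p = 0.0284), KO d4 replicate 3 (0.52, 0.0164), KO d6 replicate 1 (0.45, 0.0230) or KO d6 replicate 2 (0.56, 0.0114). The order was KO d0, Ctrl d0, KO d4, KO d6, Ctrl d4 and Ctrl d6, and of these neighbours KO d6 overlapped Ctrl d4, since its highest library of 75.4 TPM was above the lowest of Ctrl d4 at 72.7.

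Id3 showed the largest difference between the genotypes of the 6 genes, on d6, when it was the most abundant of them in Ctrl. On d0 it was at 37.2, 18.6 and 18.9 TPM in Ctrl and 21.9, 40.7 and 30.4 TPM in KO. The genotypes overlapped, with a log2 difference of 0.34 and a 95% interval of -0.12 to 0.80 (adjusted p = 0.243). Ctrl replicate 1 was about as high as the highest KO library, and without it the difference was 0.65 and was called (adjusted p = 0.00747). On d4 Id3 was at 40.1, 47.7 and 48.6 TPM in Ctrl and 18.4, 20.5 and 21.4 TPM in KO. On d6 it was at 339, 311 and 298 TPM in Ctrl and 64.7, 68.3 and 66.8 TPM in KO. The KO libraries of d4 and d6 were all below the Ctrl libraries of their day. KO was at 44.1% of Ctrl on d4 (log2 difference -1.14 ± 0.22, adjusted p = 0.000340) and 21.1% on d6 (-2.23 ± 0.22, adjusted p = 2.25e-07).

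Most of the rise of Id3 in Ctrl came after d4, when serum medium had been replaced by N2B27 with retinoic acid. Time, the change of medium and retinoic acid cannot be told apart in this design. Ctrl changed 1.83-fold from d0 to d4 (log2 change 0.91 ± 0.22, adjusted p = 0.00119), which was not called after median-ratio rescaling (0.62, adjusted p = 0.0180), and then rose 6.95-fold to d6 (2.77 ± 0.22, adjusted p = 2.93e-08). KO was at 0.648 of its d0 mean on d4, a log2 change of -0.56 ± 0.22 that was not called (adjusted p = 0.0309). It was called without Ctrl d0 replicate 1 (adjusted p = 0.00402), without KO d0 replicate 1 (-0.78, adjusted p = 0.00509) and after median-ratio rescaling (-0.73, adjusted p = 0.00794). KO then rose 3.32-fold to d6 (1.68 ± 0.22, adjusted p = 8.21e-06). Over d0 to d6 the changes were 12.7-fold in Ctrl and 2.15-fold in KO, and their difference was -2.56 ± 0.31 on the log2 scale (adjusted p = 3.64e-06). In order of level KO d4, Ctrl d0, KO d0 and Ctrl d4 each overlapped the next, and KO d6 and then Ctrl d6 stood above all others.

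**Figure D2:**
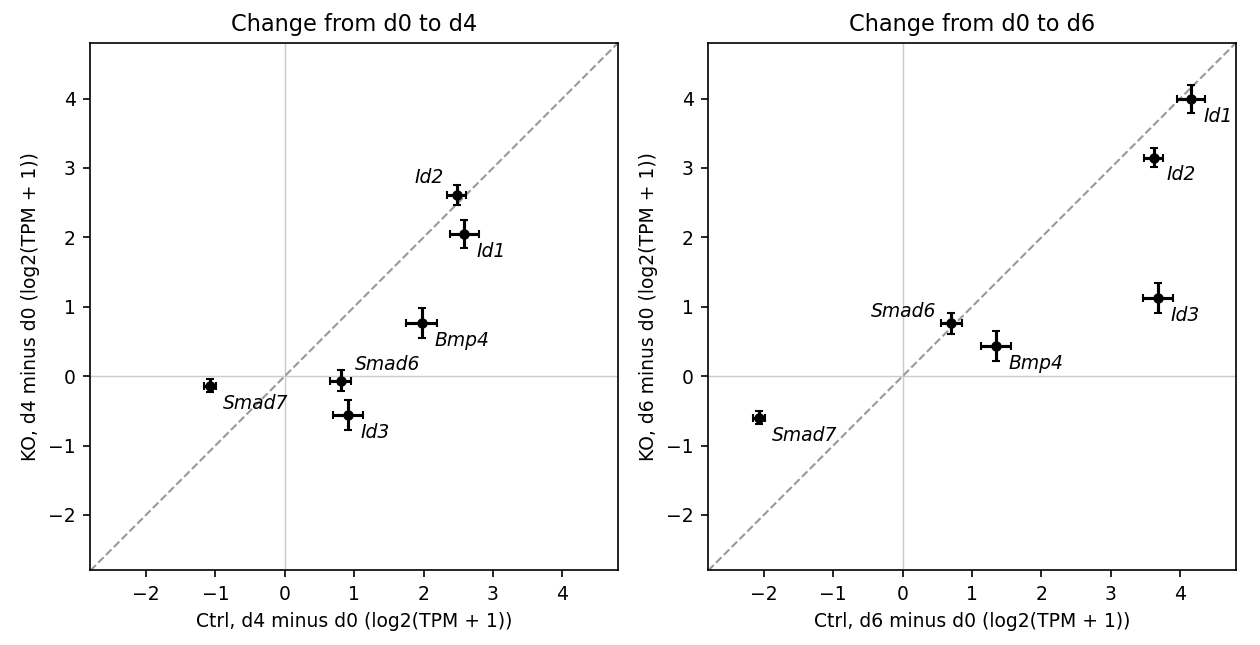
Change of the 6 genes from d0 to d4 (left) and from d0 to d6 (right) on the log2(TPM + 1) scale, Ctrl on the horizontal and Zeb2 KO on the vertical axis; bars are SE and the dashed line marks equal change. On d6 Id1 lies near the line (4.15 and 3.99), Id3 far below it (3.69 and 1.12) and Smad7 above it (-2.07 and -0.60).

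The make-up of the Id transcripts changed with genotype. The summed TPM of Id1, Id2, Id3 and Id4 was 67.3 ± 16.7 in Ctrl and 81.0 ± 12.2 in KO on d0, 177 ± 4.87 and 104 ± 9.54 on d4, and 592 ± 13.3 and 226 ± 12.2 on d6 (mean ± SD, n = 3). On d6 Id3 gave 53.4% of the sum in Ctrl and 29.6% in KO, Id1 gave 16.5% and 37.9%, and Id2 gave 29.5% and 29.4%. The Id3 to Id1 ratio of TPM in single libraries was 2.85 to 3.86 in Ctrl and 0.704 to 0.850 in KO on d6, and 1.27 to 1.53 in Ctrl and 0.921 to 0.953 in KO on d4. These ranges were apart, and a two-sided exact permutation test gave p = 0.1, the smallest possible. On d0 the ratio overlapped, at 4.57 to 6.27 in Ctrl and 3.68 to 11.3 in KO (exact permutation p = 0.6).

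Over the 6 genes, 1 was called higher and 2 lower in KO on d0, where 10.6% of all genes were called higher and 16.4% lower. On d4 1 was called higher and 3 lower (all genes, 12.7% and 32.7%), and on d6 again 1 higher and 3 lower (17.9% and 34.3%). The Ctrl and KO libraries did not overlap for 4 genes on d0, 5 on d4 and 4 on d6, against 51.5%, 65.7% and 63.7% of all genes. With 6 genes, counts of this size do not set them apart from the table as a whole. The median log2 difference of all genes was -0.07 on d0, -0.16 on d4 and -0.14 on d6, and that of the 6 genes was -0.16, -0.68 and -0.49. After median-ratio rescaling of the libraries the split of all calls was even (2300 genes higher and 2335 lower on d4, 2804 and 2811 on d6), and the numbers called among the 6 genes were the same. Id2, Id3 and Smad6 stayed lower and Smad7 higher in KO on d4 and d6 under that rescaling and under quantile normalization.

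**Figure D3:**
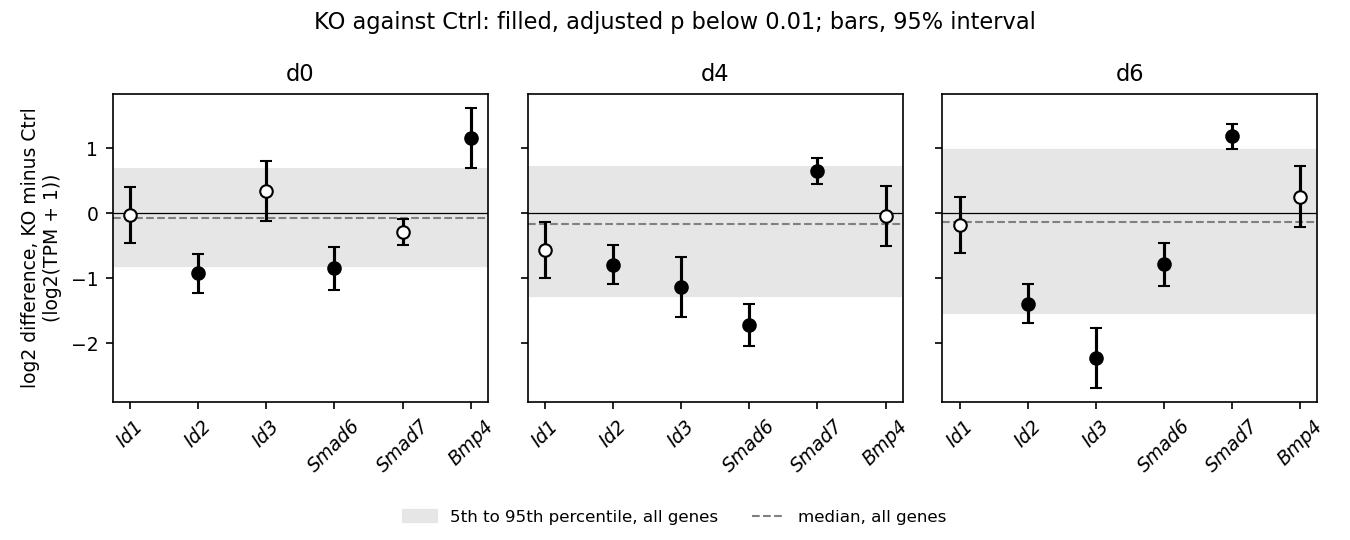
KO minus Ctrl log2 differences of the 6 genes on each day with 95% intervals; filled points were called at an adjusted p below 0.01, the grey band spans the 5th to 95th percentile of all 10965 genes and the dashed line is their median. Bmp4 (1.16) lies above and Id2 (-0.92) and Smad6 (-0.85) just below the band on d0, Smad6 (-1.72) below it on d4, and Smad7 (1.18) above and Id3 (-2.23) below it on d6.

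Whether the courses differed was tested with a moderated F test of the KO minus Ctrl differences since d0, by which 48.7% of all genes were called. The courses of Smad7 (adjusted p = 4.28e-07), Id3 (1.17e-05), Smad6 (0.00227) and Bmp4 (0.00758) differed, and those of Id2 (0.0385) and Id1 (0.235) were not called. The Bmp4 call was lost after median-ratio rescaling (0.0158) and quantile normalization (0.0854), and when any library was left out other than Ctrl d0 replicates 1 and 3, Ctrl d4 replicate 1, Ctrl d6 replicate 2 and KO d6 replicate 1 (0.0106 to 0.0220). Id2 was called after quantile normalization (0.00335) and without KO d0 replicate 3 (0.00745). The numbers called from d0 to d6 were 5 higher and 1 lower in Ctrl and 4 higher and 1 lower in KO, with 45.8% and 25.8% of all genes in Ctrl and 40.3% and 27.4% in KO. Of all genes, 45.1% were called higher and 22.3% lower from d0 to d4 in Ctrl and 35.8% and 20.9% in KO, and 22.6% and 21.5% from d4 to d6 in Ctrl and 21.5% and 19.9% in KO. The KO minus Ctrl difference was called as moving up and down from d0 to d4 in 13.6% and 22.5% of all genes, from d0 to d6 in 17.8% and 25.9%, and from d4 to d6 in 7.10% and 6.29%. The gene of the 6 with a call from d0 to d6 in Ctrl alone was Bmp4 (log2 change 1.34 and adjusted p = 3.05e-05 in Ctrl, 0.44 and 0.0797 in KO). Its Ctrl value was 0.31 (adjusted p = 0.224) after quantile normalization.

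Among the genes within 10 Mb on either side of each of the 6, the median KO minus Ctrl log2 difference was -0.17 to -0.01 on d0, -0.25 to -0.07 on d4 and -0.23 to 0.08 on d6, over 49 to 234 genes. Removing this median from each library changed no call between the genotypes on a single day among the 6 genes.

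Of a list of 66 symbols of other BMP pathway genes, grouped by role, 33 are in the table. The other 33 were not analysed here, Smad9, Bambi and Nog among them. Of these, Hfe2 and Hjv are symbols of the same gene. The authors left out the least variable genes, and the part of this in the shares below was not tested. They also kept only genes with at least 5 TPM in at least 3 libraries. The 6 target genes met this in the libraries of each genotype alone, but Bmp2, Msx1, Atoh8, Hey1 and Gata3 met it through Ctrl libraries only and Bmp8b through KO libraries only, so the filter bears on the direction of these genes and the counts that hold them are a description. On d0 2 of the list were called higher and 12 lower in KO (6.06% and 36.4%, against 10.6% and 16.4% of all genes). On d4 the numbers were 3 and 21 (9.09% and 63.6%, against 12.7% and 32.7%), and on d6 6 and 24 (18.2% and 72.7%, against 17.9% and 34.3%). Their median log2 difference was -0.26, -0.67 and -0.84. After median-ratio rescaling 4 were higher and 18 lower on d4, and 6 and 23 on d6. After quantile normalization 2 were higher and 8 lower on d0, 3 and 17 on d4, and 6 and 22 on d6. Of the 14, 24 and 30 genes called on d0, d4 and d6, median-ratio rescaling lost 1, 3 and 1 calls and quantile normalization 4, 5 and 2, and neither turned the direction of a called gene. In fits to single days 6 were lower on d0 and 2 higher on d6. Each gene is given below as its KO minus Ctrl difference on the log2(TPM + 1) scale.

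Among 5 ligands, 1 was called higher and 2 lower on d4, and 2 higher and 2 lower on d6. Bmp2 met the filter through Ctrl libraries only and Bmp8b through KO libraries only. The filter thus bears on their direction and on the rise of Bmp2 in Ctrl. The p values of Bmp2 between the genotypes and between the days in Ctrl are a description. The one higher on d4, Gdf3 (0.34), was not called after quantile normalization (adjusted p = 0.0131). Bmp2, a ligand close to Bmp4 in sequence, was at 2.21 ± 0.245 TPM in Ctrl and 0.424 ± 0.155 in KO on d4, and 8.50 ± 0.521 and 0.924 ± 0.450 on d6 (log2 differences -1.18, adjusted p = 4.14e-05, and -2.33, adjusted p = 1.23e-08). Bmp7 was at 67.9 ± 14.4 and 19.1 ± 1.64 TPM on d4 and at 54.0 ± 4.38 and 19.9 ± 2.94 on d6 (-1.76, adjusted p = 7.64e-08, and -1.40, adjusted p = 4.92e-07). In Ctrl both were higher on d4 and d6 than on d0 (log2 changes of 1.20 and 2.77 for Bmp2, and of 1.71 and 1.397 for Bmp7, adjusted p of at most 1.25e-05), and in KO Bmp7 was at 0.05 and 0.10 (adjusted p = 0.761 and 0.535). Bmp2 in KO was at 0.36 on d4 (adjusted p = 0.0852) and rose by d6 (0.77, adjusted p = 0.000893). Gdf3, a ligand of the TGF-beta family made by pluripotent cells, was higher in KO on d6, at 30.0 ± 3.81 TPM in Ctrl and 94.3 ± 4.61 in KO (1.63, adjusted p = 1.01e-10).

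Of 6 receptors and co-receptors, 5 were lower and 1 was higher on d4 and on d6, and the d4 call of the type II receptor Acvr2b (-0.60) was lost after median-ratio rescaling (adjusted p = 0.0242). Rgma, a BMP co-receptor anchored to the membrane, showed the largest difference of the list on d4. It was at 52.0 ± 6.43 TPM in Ctrl and 3.58 ± 0.222 in KO on d4 (-3.53, adjusted p = 5.49e-11) and at 56.4 ± 3.48 and 7.22 ± 1.54 on d6 (-2.82, adjusted p = 1.95e-10). Its relative Rgmb was at -1.04 on d4 (adjusted p = 7.70e-06) and -1.59 on d6 (adjusted p = 3.63e-08). Acvr2a, a type II receptor for activins and BMPs, was at -0.60 on d4 (adjusted p = 0.000173, and 0.0186 after quantile normalization) and -1.27 on d6 (adjusted p = 3.75e-08).

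The 5 signal-transducing SMADs in the table were Smad1, Smad5, Smad4, Smad2 and Smad3. Smad2 and Smad3 are not among the SMADs named above for BMP receptors. All 5 were lower in KO on d6, and 4 of 5, all but Smad4, on d4, against 34.3% and 32.7% of all genes. The d4 call of Smad1 was lost after median-ratio rescaling (adjusted p = 0.0113) and quantile normalization (0.0196). The BMP-activated Smad1 was at 40.5 ± 0.985 TPM in Ctrl and 21.5 ± 1.15 in KO on d6 (-0.89, adjusted p = 2.15e-07), and Smad5 at 37.8 ± 2.47 and 17.0 ± 0.689 (-1.11, adjusted p = 2.67e-09). Smad4, the partner shared by both branches of the pathway, was at 122 ± 2.55 and 90.8 ± 7.59 TPM (-0.42, adjusted p = 6.00e-06). Smad1 rose from d0 to d4 in Ctrl (log2 change 0.95, adjusted p = 4.70e-08) and in KO (0.64, adjusted p = 6.54e-06). From d0 to d6 its change was 0.94 in Ctrl (adjusted p = 3.85e-08) and 0.20 in KO (adjusted p = 0.0482).

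Among 3 extracellular antagonists, 1 was higher and 2 were lower on d4, and 3 were lower on d6. Follistatin (Fst), which binds activins and some BMPs, changed its direction between the days. It was at 2.68 ± 0.455 TPM in Ctrl and 11.3 ± 4.18 in KO on d4 (1.68, adjusted p = 3.58e-05), and at 33.3 ± 10.2 and 8.89 ± 1.84 on d6 (-1.77, adjusted p = 1.29e-05). Of 6 inhibitors inside the cell or in its membrane, 2 were lower on d4, and 2 were higher and 2 lower on d6. Of these, the calls of the ubiquitin ligases Smurf1 on d4 (-0.37) and Smurf2 on d6 (-0.26) were lost after median-ratio rescaling (adjusted p = 0.0274 and 0.224) and quantile normalization (0.150 and 0.4997). Ski, a corepressor that binds SMADs, was at 233 ± 15.9 TPM in Ctrl and 81.3 ± 5.13 in KO on d4 (-1.51, adjusted p = 5.25e-10) and at -1.13 on d6 (adjusted p = 6.30e-09).

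Of 6 other targets, 4 were lower on d4, and 5 were lower and 1 higher on d6. Msx1, Atoh8, Hey1 and Gata3 met the filter through Ctrl libraries only. The filter thus bears on their lower values in KO and on the rise of Atoh8 in Ctrl. The counts and the p values of these genes are a description. Atoh8, which encodes a basic helix-loop-helix factor, showed the largest difference of the list on d6, at 25.8 ± 2.77 TPM in Ctrl and 0.170 ± 0.0735 in KO (-4.51, adjusted p = 2.60e-11). It rose in Ctrl from d0 to d6 (log2 change 4.53, adjusted p = 6.27e-12) and was at -0.09 in KO (adjusted p = 0.718). The homeobox gene Msx1 was at 25.6 ± 4.07 and 4.95 ± 0.742 TPM on d6 (-2.16, adjusted p = 1.92e-06). Hey1, a repressor better known as a Notch target, was at -1.70 on d4 (adjusted p = 2.72e-06) and -1.33 on d6 (adjusted p = 2.16e-05). The zinc finger genes Gata2 and Gata3 were at -1.50 (adjusted p = 6.60e-05) and -1.05 (adjusted p = 0.000363) on d4, and at -1.71 (adjusted p = 1.17e-05) and -0.87 (adjusted p = 0.00133) on d6. The Gata3 calls were lost after quantile normalization (adjusted p = 0.0573 on d4 and 0.109 on d6).

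Id4, the remaining Id gene, ran against the other 3 over time. It was at 24.4 ± 5.005 TPM in Ctrl on d0 and 3.63 ± 1.17 on d6 (log2 change -2.46, adjusted p = 8.06e-09), and at 38.8 ± 2.35 and 6.95 ± 1.52 in KO (-2.34, adjusted p = 1.74e-08). On d6 it was higher in KO (0.79 ± 0.20, adjusted p = 0.00252). The E proteins are the partners that Id proteins hold. The 2 in the table were lower in KO on d4 and d6, and Tcf12 was at 23.9 ± 0.715 TPM in Ctrl and 9.24 ± 0.733 in KO on d6 (-1.28, adjusted p = 2.27e-09).

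**Figure D4:**
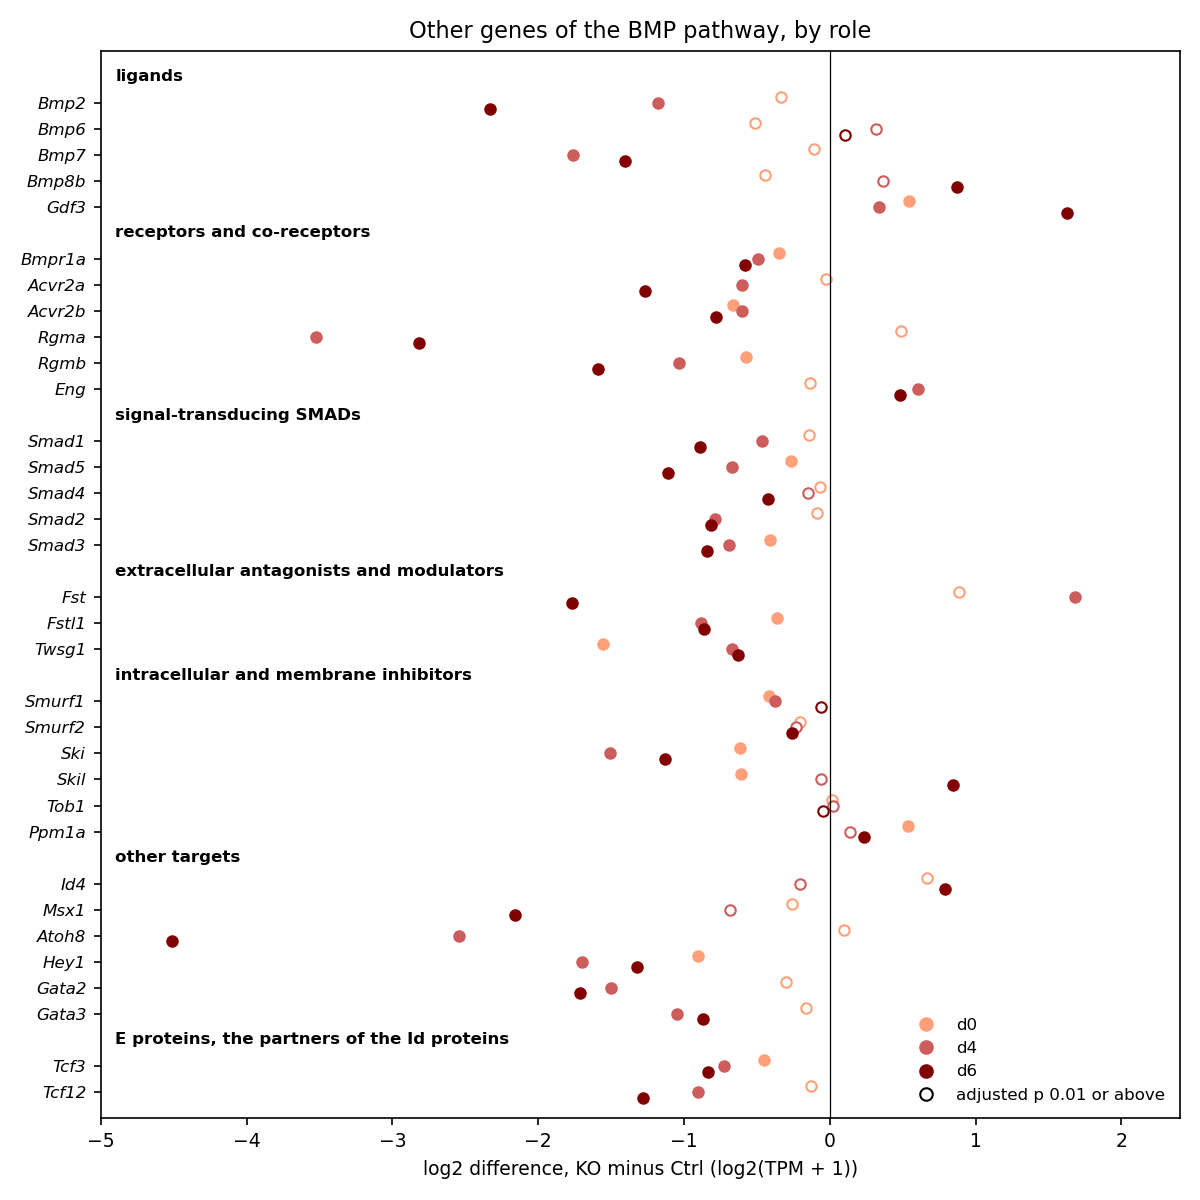
KO minus Ctrl log2 differences of the 33 other BMP pathway genes of the table, grouped by role, on d0, d4 and d6 (light to dark); filled points were called at an adjusted p below 0.01. On d6 24 are filled left of the zero line and 6 right of it, with Atoh8 (-4.51) farthest to the left and Gdf3 (1.63) farthest to the right. Bmp2, Msx1, Atoh8, Hey1 and Gata3 met the filter through Ctrl libraries only and Bmp8b through KO libraries only.

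The 6 genes did not follow a single pattern over the 18 libraries. Pearson's r of log2(TPM + 1) was 0.93 between Id1 and Id2, 0.74 between Id1 and Id3, and 0.72 between Id2 and Id3. Smad7 had an r of -0.83, -0.85 and -0.91 with Id1, Id2 and Id3, and -0.67 with Smad6. Bmp4 had an r of 0.57 with Id1, 0.18 with Id3 and 0.02 with Smad6. These values describe libraries that share genotype and day within groups of 3.

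Among 9745 genes with a mean of at least 5 TPM, those whose pattern was most like each gene differed from one gene to the next. The closest to Id1 were Adgrl2 (r = 0.99), Sh3d19 (0.99) and Irs2 (0.98), the last an adaptor of the insulin receptor. Id2 had Ppp1r26 (0.99), Zfp334 (0.99) and Plekho1 (0.99), and Id3 had Adam11 (0.96), Vps72 (0.96) and Prss23 (0.96). Smad6 had Fam117a (0.97), Fbxl19 (0.96) and Wasl (0.95), an activator of actin assembly. Smad7 had Mybl2 (0.99), a cell cycle transcription factor, Gtsf1l (0.98) and Gsta4 (0.97). Bmp4 had Rian (0.95), Mirg (0.94) and Caprin2 (0.92), of which Rian and Mirg are noncoding RNAs of one imprinted cluster.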

How the data were processed

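RNA-seq reads (single, 36 bp) had been aligned by the authors with TopHat2 2.0.13 to GRCm38 and counted with featureCounts 1.4.6, and genes without 5 TPM in at least 3 libraries and the least variable genes had been left out. The authors deposited TPM values for 18 libraries, and their own tests used DESeq2. Leaving out 81 repeated rows gave 10965 genes. The deposited table also holds 3 columns of a score per gene (a variance and a variance divided by the mean, given in 2 columns) over all libraries, which were not used. Samples were grouped by genotype and day as given in the labels.

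limma 3.58.1 in R 4.3.3 fitted the mean of each of the 6 groups to log2(TPM + 1) of every gene, with an intensity trend in eBayes. It stands in place of the count test of the study because the table holds TPM, and the pseudocount was 1. Adjustment for multiple testing was that of Benjamini and Hochberg across the whole table, and a gene was called under 0.01. Whole reads were recovered from the TPM of all 10965 genes (tolerance 1e-06). No value was 0, and the lowest recovered number was 1, found for 1898 values. From this it was inferred that 1 read had been added to each value, which the sources used here do not state. The reads used are the recovered numbers less 1. These reads gave the depth (median 12131165 per library) and a voom fit. Intervals and SE cover the spread between libraries within groups. In the fit to all libraries, each gene had a shared estimate of this spread over the 6 groups, moderated by eBayes. It is not the spread of the 3 libraries of any single group. The SE of the Bmp4 difference between the genotypes was thus 0.22 on each of d0, d4 and d6.

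Named are the 6 genes, Zeb2, the pathway genes called with an absolute log2 difference above 1 on d4 or d6, with Id4, Smad1, Smad4 and Smad5, and for each of the 6 genes the 3 with the highest Pearson correlation. The genes of the pluripotency and neural lists are named without single values. Acvr2b, Smad2, Smad3, Smurf1, Smurf2 and Bmp8b were named after their values were seen. The members and lists were chosen with earlier results of these data known. Upstream sequences came from RefSeq, where 4 of the 6 genes matched by symbol. Steps were tested on simulated data. Python 3.11.15, numpy 2.4.6, pandas 2.3.3 and matplotlib 3.10.9 were used. The alternatives were other pseudocounts, only genes with at least 10 TPM on average, libraries rescaled by median ratios or quantiles, a fit to a single day, no trend, the replicate number as a block, voom on the reads, subtraction of the neighbourhood median, the thresholds of the study, and each library left out in turn.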

Additional observations from a re-analysis of the deposited data

Results flagged for a closer look

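The difference between KO and Ctrl changed with the day for 4 of the 6 genes, by tests of the change itself (limma, log2 scale, adjusted over all genes), as follows.

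For Id3 the KO minus Ctrl difference moved from d0 to d4 by -1.47 ± 0.31 (adjusted p = 0.000921), and from d0 to d6 by -2.56 ± 0.31 (adjusted p = 3.64e-06). Both were called without any one library. All genes were called lower in these comparisons at 22.5% and 25.9%.

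For Smad7 the difference moved from d0 to d4 by 0.94 ± 0.13 (adjusted p = 2.69e-05), from d0 to d6 by 1.47 ± 0.13 (adjusted p = 1.40e-07) and from d4 to d6 by 0.53 ± 0.13 (adjusted p = 0.00756). The shares of all genes called higher were 13.6%, 17.8% and 7.10%. The first and the second were called without any one library. The third was not called without Ctrl d0 replicate 1, Ctrl d4 replicate 1 or 2, Ctrl d6 replicate 2 or 3, KO d0 replicate 3, KO d4 replicate 1 or 2, or KO d6 replicate 1 or 2 (0.46 to 0.53, adjusted p of 0.0104 to 0.0235), nor with a replicate block (adjusted p = 0.0129), a pseudocount of 5 (0.39, adjusted p = 0.0159) or the neighbourhood median removed (0.40, adjusted p = 0.0235).

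For Smad6 the difference moved from d0 to d4 by -0.87 ± 0.22 (adjusted p = 0.00368) and from d4 to d6 by 0.93 ± 0.22 (adjusted p = 0.00557). The first was not called without Ctrl d0 replicate 2 (-0.74, adjusted p = 0.0120), Ctrl d4 replicate 2 (-0.79, 0.0122) or KO d0 replicate 1 (-0.73, 0.0112), nor with voom (-0.86, 0.0176). The second was not called without Ctrl d4 replicate 2 or 3, Ctrl d6 replicate 1 or 3, KO d4 replicate 1 or 3, or KO d6 replicate 1 (0.82 to 0.95, adjusted p of 0.0108 to 0.0182).

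For Bmp4 the difference moved from d0 to d4 by -1.21 ± 0.31 (adjusted p = 0.00427). It was not called without Ctrl d4 replicate 3 (-1.09, adjusted p = 0.0138), KO d0 replicate 2 (-1.16, 0.0115) or KO d4 replicate 1 (-1.17, 0.0106), nor after quantile normalization (-0.84, 0.0416).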

How the results depend on the processing

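The d4 and d6 calls of Id2, Id3, Smad6 and Smad7 between the genotypes held in every setting run that kept the gene and the adjusted p threshold, as did that of Id2 on d0. At the thresholds of the study, which ask for an absolute log2 difference above 1, Smad7 (0.65) and Id2 (-0.79) on d4, Smad6 on d6 (-0.79) and Id2 on d0 (-0.92) were not called, which left 2 members lower on d4 and 2 on d6. Values that turned their sign were not called. On d0 the Id1 difference was 0.012 after median-ratio rescaling, 0.019 after quantile normalization, 0.017 with voom and 0.14 with the neighbourhood median removed. On d4 Bmp4 was at 0.12, 0.27, 0.073 and 0.10 under the same 4 settings. With a pseudocount of 5, the change since d0 in the KO minus Ctrl difference was -0.080 for Id2 on d4 and -0.041 for Smad6 on d6. After quantile normalization the change from d0 to d6 was -0.024 for Smad6 in Ctrl and -0.14 for Bmp4 in KO, and the rise of Smad6 in Ctrl was not called after median-ratio rescaling either (0.43, adjusted p = 0.0165). The cause was not tested.

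Calls moved as follows, the cause not tested. The F of the Bmp4 course was 7.57 with a pseudocount of 0.1, 6.61 after median-ratio rescaling, 3.43 after quantile normalization and 6.36 with the neighbourhood median removed, none called. That of Id2 was 9.90 with a pseudocount of 5 and 10.4 after quantile normalization, both called. Id1 on d4 was called at -0.50 with a pseudocount of 5 and at -0.57 in a fit to d4. Smad7 on d0 was called with voom (-0.25, adjusted p = 0.00830). In a fit to d0, Smad6 (-0.85) and Bmp4 (1.16) were not called, leaving 0 members higher and 1 lower (limma, unadjusted p of both below 0.01 in the fit to all days), with 6 pathway genes lower on d0 and 2 higher on d6. A minimum mean TPM of 10, which takes Smad6 and Bmp4 out of the fit, also left 0 higher and 1 lower on d0. Voom called 4 pathway genes higher on d0. At the thresholds of the study (unadjusted p below 0.01, absolute log2 difference above 1) 0 members were lower on d0 and 0 higher on d4, and pathway genes higher and lower were 0 and 1 on d0, 1 and 9 on d4, and 1 and 13 on d6.

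Leaving out 1 library at a time gave KO minus Ctrl differences of -0.20 to 0.26 for Id1 on d0, 0.12 to 0.65 for Id3 on d0, -0.71 to -0.45 for Id1 on d4 and -0.13 to 0.066 for Bmp4 on d4. It gave an F of 3.16 to 8.67 for the course of Id2 and 6.21 to 18.1 for that of Bmp4, 1 to 2 members higher on d0 and 2 to 4 pathway genes higher on d0. The change since d0 ranged from -0.036 to 0.25 for Id2 on d4, from -0.44 to 0.019 for Id1 on d6 and from -0.074 to 0.20 for Smad6 on d6, and the change of Smad6 in KO from d0 to d4 from -0.15 to 0.077.

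Same-numbered Ctrl and KO libraries of a day had a correlation of deviations of -0.08 to 0.23 over 9 pairs, of which 6 were above 0.1 (those of replicates 1 and 2 on each day, not those of replicate 3). Of 9 Ctrl libraries 7 correlated best with the KO library of their number, a hint from the data that some numbers mark shared conditions. The labels do not say so and not every pair was above 0.1, so the fit without the block is reported. With the replicate block the genes called went from 2960 to 2780 on d0, 4988 to 4853 on d4 and 5731 to 5629 on d6. For the 6 genes it changed the call of Smad7 from d4 to d6 (0.53, adjusted p = 0.0129) and no other. Depth limits Id1, Id2 and Bmp4 on d0, where single libraries held as few as 15, 17 and 13 reads.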
